A study of Mus musculus with 4 samples.

Results

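The DNA around 2 mouse genes for red cell surface proteins, Ermap and Gypc, held 5 of the 945 KLF1 peaks in the authors' list. The genes were picked with earlier results of these data in view, and the members were chosen on measured values: a peak counted when its listed start fell in a fixed mm9 window, chr4:118840000-118880000 for Ermap with its promoter or chr18:32670000-32740000 for Gypc. The Ermap window held 2 listed peaks and the Gypc window 3. No mm9 annotation of exons or transcription starts was used here, so the windows carry the gene names by the rule and each peak is described by its position alone. In the RefSeq gene table of build GRCm38, the protein-coding neighbours of Ermap were Zfp691 and Svbp and those of Gypc Gm35060 and Tslp. A peak in either window may therefore lie nearer to another gene.

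KLF1 occupancy was measured by chromatin immunoprecipitation with sequencing (ChIP-seq), which counts the DNA fragments that an antibody against the protein brings down. All material came from fetal liver at embryonic stage E14.5, and 4 livers of Klf3 -/- embryos on the Balb/c background were pooled, so ChIP and input shared the loss of Klf3 and there was no group with intact Klf3. The antibody was a rabbit polyclonal to KLF1, and the input group was DNA of the same kind with no antibody. Each group had a SOLiD 2.0 run and a SOLiD 3.0 run, and both were combined before deposit, which left 17438921 ChIP and 47356494 input reads and no replicate error for any value. The labels give the cells as erythroid in whole fetal liver, and no expression data were used here to check this against marker genes.

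KLF1, also known as EKLF, is an erythroid transcription factor of the zinc finger type that binds CACCC-type DNA in promoters and enhancers and activates many erythroid genes. Ermap encodes an erythroid membrane protein of the immunoglobulin superfamily, whose human counterpart carries the Scianna blood group antigens. Gypc encodes glycophorin C, a sialic acid-rich membrane protein that carries the Gerbich antigens in humans and, through protein 4.1 and p55, ties the red cell membrane to its spectrin skeleton. Klf3, absent here, belongs to the same family and binds similar letters.

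The promoter of Ermap is shown because KLF1 is known to read CACCC-type letters and the gene was grouped here with its promoter. RefSeq places it on the reverse strand of chromosome 4 in build GRCm38.p6, chr4:119189946-119190245, and the run is written 5′ to 3′ along the gene, from 250 bases before the annotated start to 50 after. Capitals mark the letters found by the search described next.
Ermap promoter: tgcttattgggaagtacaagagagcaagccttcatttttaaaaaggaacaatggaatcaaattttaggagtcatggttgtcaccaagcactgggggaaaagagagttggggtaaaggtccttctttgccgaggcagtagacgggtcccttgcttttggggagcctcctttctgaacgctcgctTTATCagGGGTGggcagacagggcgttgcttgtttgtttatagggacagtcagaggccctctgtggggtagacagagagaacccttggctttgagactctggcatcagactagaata

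Both strands were searched for 4 motifs. The letters CACCC were present once, on the reverse strand as GGGTG at bases 191 to 195 counted from 1 at the 5′ end, which starts 60 bases before the annotated start. The letters GATAA, the core read by GATA factors, were present once, on the reverse strand as TTATC at bases 184 to 188. The matches do not overlap. The longer KLF-type motif CCNCNCCC and the longer GATA motif AGATAA had no match in these 300 bases. GATAA was added to the search after the letters had been read, and AGATAA contains it. Of 32851 promoters of the same length, 57.5% held CACCC, 25.4% held GATAA and 12.6% held both, so each match alone is common. The shares were 49.5% for CCNCNCCC and 11.2% for AGATAA. These are matches of letters and not measured sites, and the listed peaks could not be placed against this promoter because its coordinates are in another build.

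The promoters of other genes for blood group carriers and related membrane proteins were searched in the same way. Of 23 such genes, 20 had a promoter in the table. CACCC was present in at least 1 promoter of 18 of these 20, against 59.8% of all 27025 genes, and CCNCNCCC in 16, against 51.9%. GATAA was present in 9 of 20, against 28.4%, and AGATAA in 7, against 12.7%. CACCC with GATAA in the same promoter was present in 7, against 14.3% of all genes. Those with both were Kel, Rhd, Rhag, Ackr1, Icam4, Abcg2 and Slc29a1, among them the Kell glycoprotein, the Rh protein, the Rh-associated glycoprotein and the Duffy chemokine receptor. Of the 7, Slc29a1 had 8 promoters, Abcg2 had 3 and the others 1 each, and more promoters give more chances of a match. The shares were not adjusted for this. Slc4a1, Slc14a1 and Bsg had no entry. Listed KLF1 peaks near these genes were not counted, since an mm9 gene annotation was not used here.

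Ermap and Gypc each had 1 tall KLF1 peak. The tall Ermap peak, chromosome 4 position 118862630, had a summit of 30 ChIP reads over 4 input reads, with every read extended from its 5′ end to the length that gives the authors' heights. The height, the authors' value in the list, is that same number of ChIP reads. After scaling each library to all its aligned reads, ChIP exceeded input 20.4-fold (exact 95% interval 7.18 to 79.6), or 16.8-fold with 1 read added to each count. The tall Gypc peak, chromosome 18 position 32702272, had 34 ChIP reads over 4 input reads, 23.1-fold (8.23 to 89.5), or 19.0-fold with the added read. All intervals cover counting error only. Among the 945 listed peaks, whose median height was 11, 20 were higher than the Ermap peak and 3, itself included, had its height. Only 10 were higher than the Gypc peak, and 5, itself included, had the same height.

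The tall peaks did not differ beyond counting error. The Ermap height was 0.882 times that of Gypc (95% interval 0.522 to 1.49), and the Ermap summit ratio 0.884 times that of Gypc (0.151 to 5.19). The intervals are wide and do not show that the peaks are alike.

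The lower peaks had heights of 9 to 12, where the list began at 9 and had its median at 11. In the Ermap window the other listed peak, at 118863379 to 118863391, had 9 ChIP reads and 4 input reads at its start, a ratio of 6.11 (1.71 to 27.2) and 5.43 with 1 read added. It stood 749 bp from the tall Ermap summit, and the ChIP pileup fell to 0 between them. In the Gypc window the peak at 32716456 had 12 ChIP reads and 2 input reads, 16.3-fold (3.63 to 150) or 11.8-fold with the added read. The third Gypc peak, at 32719704, had 10 ChIP reads and no input read, 9.05-fold when the input is set to the 3 reads that a count of 0 allows, and its exact interval starts at 6.09 with no upper limit. These 3 heights, 9, 10 and 12, overlapped within counting error. The Ermap peak of height 9 reached 0.30 times the tall Ermap peak (0.125 to 0.648), and the Gypc peaks of 12 and 10 reached 0.353 (0.166 to 0.699) and 0.294 (0.130 to 0.609) times the tall Gypc peak. In all, 26 such ratios between members were computed, and their intervals were not adjusted for that number. Members were called tall or lower by these same heights. A ratio below 1 of a lower peak to a tall peak was therefore fixed by the sorting and is a description.

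**Figure D1:**
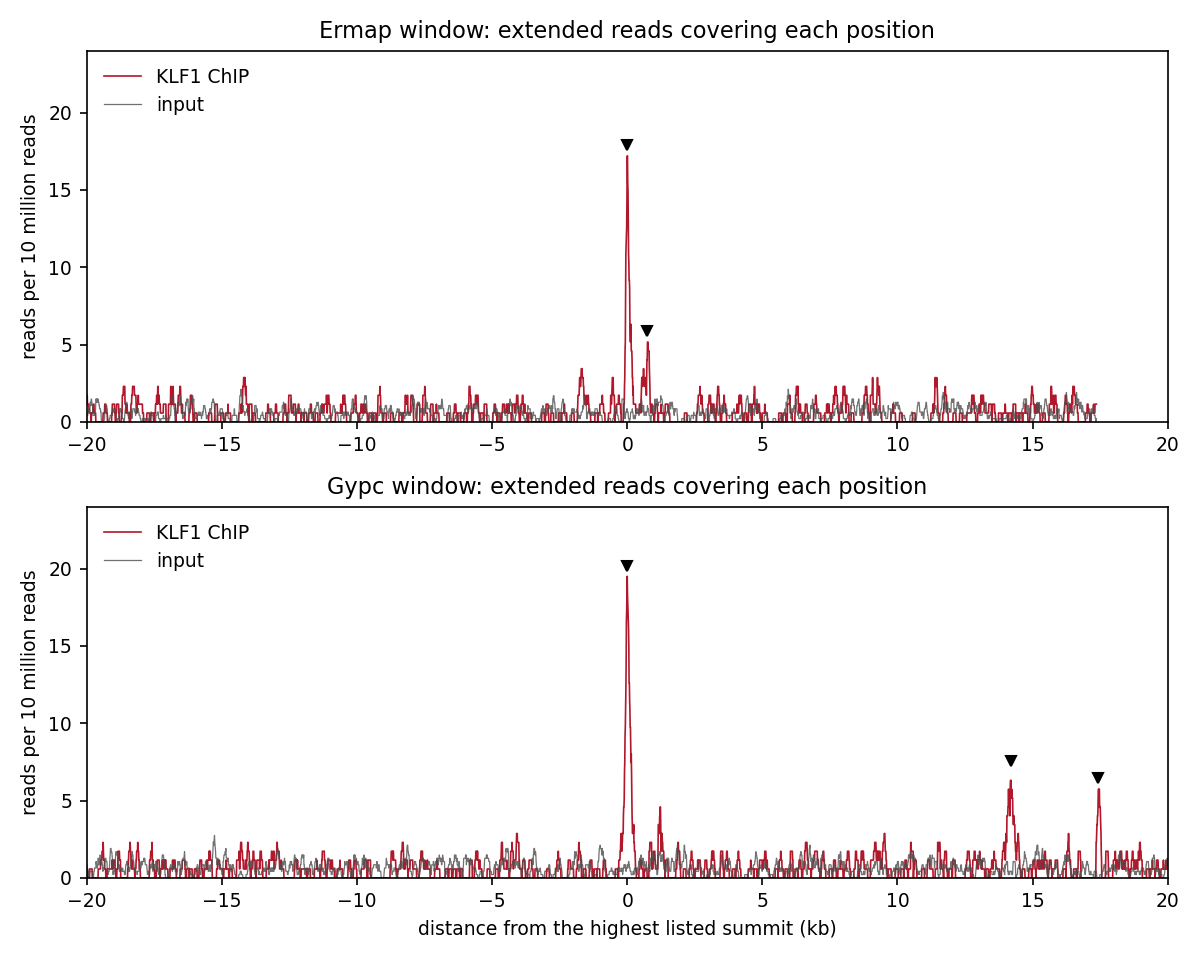
Pileup of extended reads (vertical axis, scaled to library size) against distance from the tallest listed summit of each window (horizontal axis, kb), for KLF1 ChIP in red and input in grey; triangles mark the listed peaks. The tall peaks of 30 reads at Ermap and 34 reads at Gypc stand above an input that does not rise with them, and the lower Gypc peaks lie 14.2 kb away and a further 3.25 kb on.

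All 5 members were at 5-fold or more at the summit with 1 read added, as were 98.2% of all listed peaks. The list was made from these same ChIP reads, so nothing is read from that count. The Ermap peak of height 9 was the member closest to this limit, and it was at 4.34-fold when reads were extended to 80 positions and at 4.22-fold with 5 reads added.

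**Figure D2:**
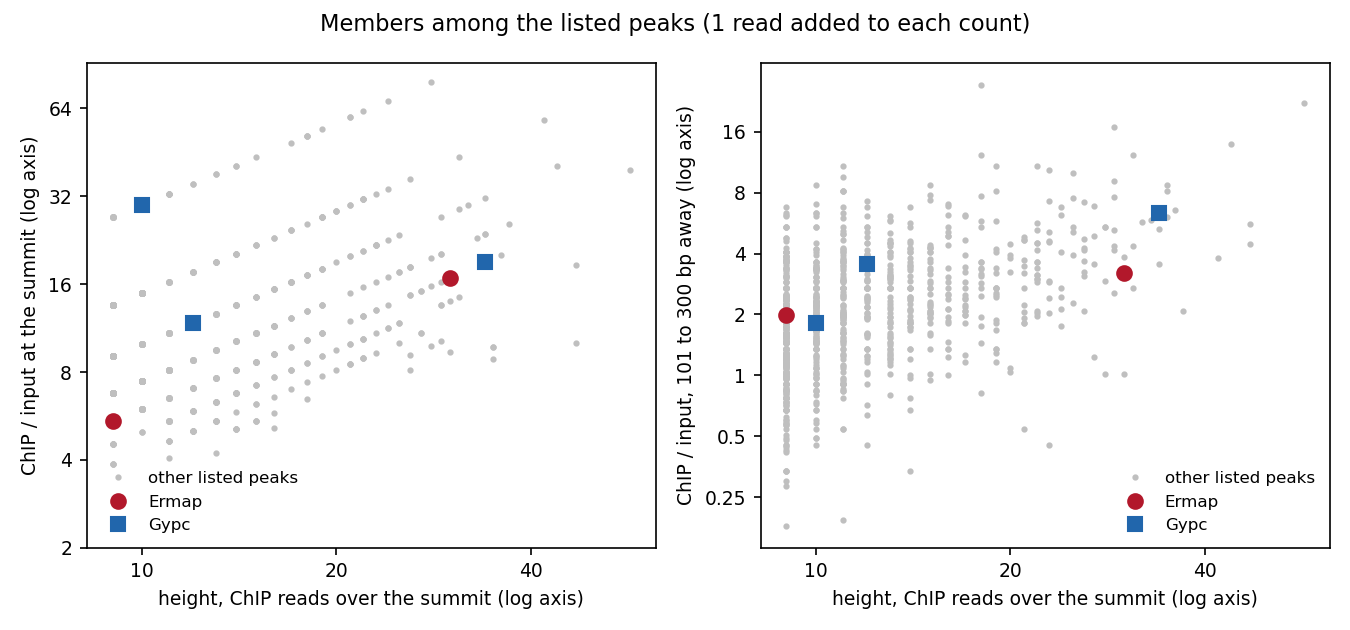
Each grey point is a listed peak, with its height on the horizontal log axis and the ratio of ChIP to input on the vertical log axis, at the summit (left) and in the flanks up to 300 bp from it (right), with 1 read added to each count; Ermap members are red circles and Gypc members blue squares. The tall peaks, of height 30 and 34, lie at 16.8-fold and 19.0-fold at the summit, while the Gypc peak of height 10 lies high on the left because no input read covered it.

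Beside the summit, the counting interval of ChIP over input stayed above 1 at the tall Gypc peak for every outer limit used. At the tall Ermap peak it did so for some of these limits. These values come from the contrast that chose the peaks and are descriptions. Reads starting over 100 and up to 300 bp away, called the flanks here, do not cover the summit. They numbered 27 in the ChIP and 11 in the input at the tall Gypc peak, a ratio of 6.67 (3.20 to 14.9). At the tall Ermap peak flank reads numbered 12 and 10, a ratio of 3.26 (1.29 to 8.42), but in flanks ending at 200 bp they numbered 7 and 9, and that ratio of 2.11 had an interval that includes 1 (0.668 to 6.37). In flanks reaching 500 bp the ratio was 2.22 (1.12 to 4.34) for Ermap and 3.88 (2.15 to 7.13) for Gypc. The Ermap flank ratio was 0.495 times that of Gypc (0.143 to 1.68), so the difference was within counting error. With 1 read added, 40 listed peaks had a higher flank ratio than Gypc and 249 a higher one than Ermap, and the median over the list was 2.11.

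The lower peaks had flanks that ranged from 1.70 to 3.62. The Gypc peak at 32716456 had 16 ChIP and 12 input reads there, a ratio of 3.62 (1.61 to 8.39). For the Gypc peak at 32719704 the counts were 5 and 8, 1.70-fold (0.437 to 5.88), and for the Ermap peak at 118863379 they were 10 and 14, 1.94-fold (0.771 to 4.70). The intervals of these 2 include 1, so no excess beside them was detectable at this depth. In flanks ending at 200 bp the lower Ermap peak was at 4.07 (0.966 to 19.6), from 6 and 4 reads. In flanks reaching 500 bp the ratio at 32719704 was 0.776 (0.256 to 1.99), on the other side of 1. Flank values come from the same ChIP and input libraries as the list and are descriptions.

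Between 300 and 500 bp no excess was detectable at either tall peak, though few reads lay there and the intervals are wide. At the tall Gypc peak the ratio was 0.815 (0.144 to 3.16) between 300 and 500 bp and 0.662 (0.296 to 1.34) between 500 and 1000 bp. At the tall Ermap peak it was 1.36 (0.418 to 3.91) between 300 and 500 bp. Between 500 and 1000 bp it was 4.38 (2.35 to 8.37). This stretch holds the listed Ermap peak of height 9 and unlisted pileups of 5 reads at 118862074 and 531 bp after the summit. At 2 to 10 kb the ratios were 1.02 (0.847 to 1.22) for Ermap and 0.909 (0.758 to 1.09) for Gypc. Over all listed peaks the ratio was 7.71 within 100 bp, 2.29 in the flanks, 1.33 between 300 and 500 bp and 1.01 at 2 to 10 kb.

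**Figure D3:**
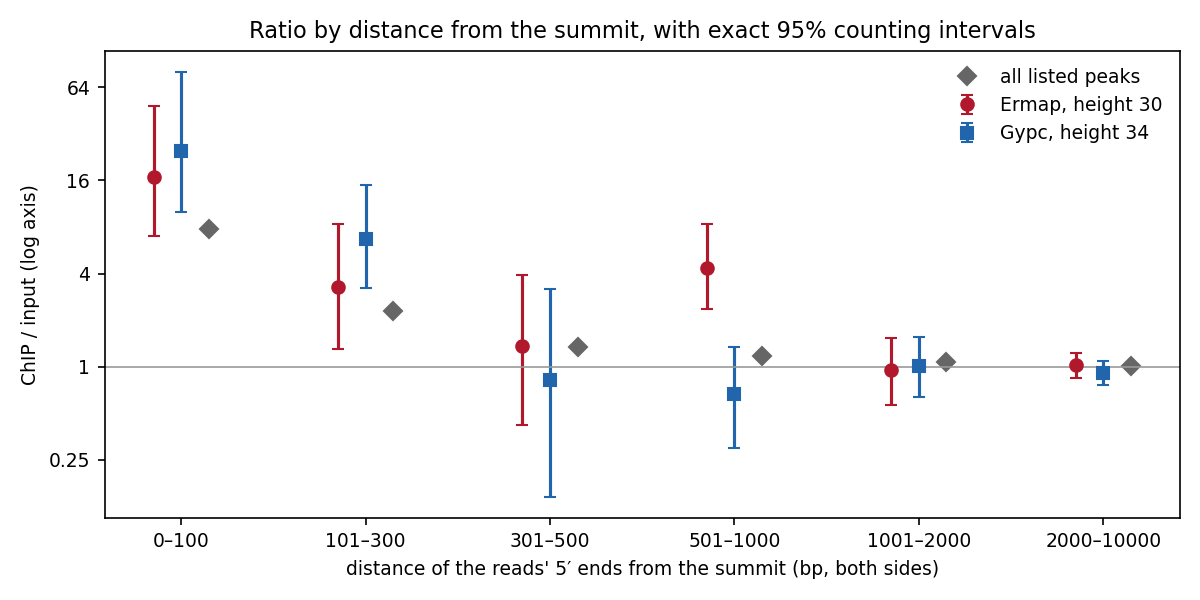
Ratio of ChIP to input (vertical log axis) for reads whose 5′ ends lie at increasing distance from the summit (horizontal axis, bp on both sides), for the tall Ermap peak (red), the tall Gypc peak (blue) and all listed peaks (grey); bars are exact 95% counting intervals. Gypc falls from 24.98 within 100 bp to 0.815 between 300 and 500 bp. Ermap rises again to 4.38 between 500 and 1000 bp, where its lower listed peak and unlisted pileups of 5 reads lie.

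The width of a peak, taken as the stretch where the ChIP pileup stays at or above 50% of the summit height, varied among the members. The tall Ermap peak was 144 bp wide and the tall Gypc peak 205 bp, against a median of 128 bp over the list (quartiles 109 and 160). The Gypc peak at 32716456 was the broadest member at 300 bp, and 11 of the 945 listed peaks were broader. The Gypc peak at 32719704 was 163 bp wide and the Ermap peak at 118863379 was 123 bp wide. The width depended on the read extension: at 80 positions the tall Gypc peak was 133 bp wide, and at 130 positions the lower Ermap peak was 345 bp wide.

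Strand gave a further description of the peaks. Fragments that span a bound site are read from their ends, so forward reads start before it and reverse reads after it. A height counts only forward reads from up to 100 bp before the summit and reverse reads from up to 100 bp after it. Choosing summits by height therefore favours this split, and no binding is read from it. Within 300 bp before the tall Ermap summit 14 of 17 ChIP reads were forward (82.4%, exact binomial interval 56.6% to 96.2%), and within 300 bp after it 8 of 31 were (25.8%, 11.9% to 44.6%). At the tall Gypc summit 24 of 29 were forward before (82.8%, 64.2% to 94.2%) and 11 of 43 after (25.6%, 13.5% to 41.2%). Over all listed peaks the shares were 72.4% and 27.1%. The median reverse read started 100 bp beyond the median forward read at Ermap and 107.5 bp beyond it at Gypc, within the fragment range of 80 to 130 bp that the labels give.

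The lower peaks had fewer reads from which to read a side. At the Gypc peak at 32716456, 12 of 18 reads before and 6 of 16 after were forward, and at 32719704 it was 6 of 6 and 3 of 9. At the Ermap peak at 118863379, 6 of 11 were forward before (54.5%, 23.4% to 83.3%) and 2 of 11 after (18.2%, 2.28% to 51.8%). The median reverse and forward reads were 140.5 bp apart at 118863379, 70 bp at 32716456 and 116 bp at 32719704. Only the last of these lies within the fragment range of 80 to 130 bp, but this depended on the distance searched. With reads up to 500 bp from the summit, the same peaks were at 112.5, 101.5 and 126 bp, all within the range. With reads up to 150 bp from it they were at 37.0, 37.0 and 155 bp, all outside it. In the input, 4 of 11 reads before the tall Ermap summit and 4 of 7 before the tall Gypc summit were forward, counts too low to read a side from.

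**Figure D4:**
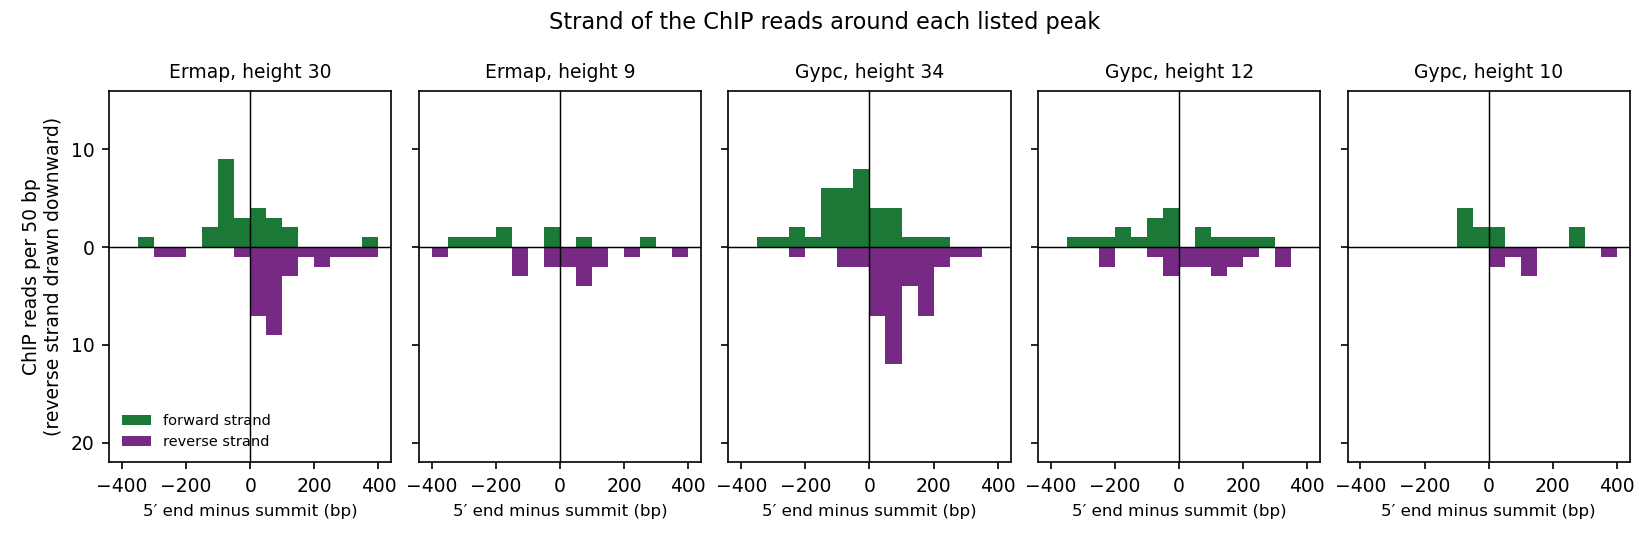
ChIP reads per 50 bp (vertical axis) by the distance of the 5′ end from the summit (horizontal axis, bp) for each member, with forward reads drawn upward in green and reverse reads downward in purple. Forward reads gather before and reverse reads after the tall summits, with medians 100 bp apart at Ermap and 107.5 bp apart at Gypc. Choosing summits by height favours this split.

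Away from the listed peaks, ChIP did not exceed input beyond counting error in either window. Over the whole 40 kb, the Ermap window held 476 ChIP and 1102 input reads, a scaled ratio of 1.17 (1.05 to 1.31). With 1 kb on either side of each listed peak left out it held 385 and 1021, a ratio of 1.02 (0.908 to 1.15). The Gypc window of 70 kb held 826 and 2069 reads, 1.08-fold (0.999 to 1.18), and 661 and 1895 away from its peaks, 0.947-fold (0.866 to 1.04). Both windows were denser than the genome in both libraries: input reads per kb were 1.43 times the mean of the autosomes and X in the Ermap window and 1.54 times in the Gypc window, and ChIP reads 1.68 and 1.67 times. The part of this density in the peak heights, which were not scaled to it, was not tested.

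In bins of 1 kb, 1 of 40 Ermap bins and 1 of 70 Gypc bins reached 5-fold with at least 5 ChIP reads, where 0.211% of all 1 kb bins with a read did. Both were the bins of the tall peaks. The Ermap bin from 118862000 had 58 ChIP and 24 input reads (6.41-fold with 1 read added), which was 12.2% of the ChIP reads of the window and 2.18% of its input reads. The Gypc bin from 32702000 had 77 and 32 (6.42-fold), or 9.32% and 1.55%. The bins of the lower peaks were at 3.92-fold and 2.58-fold in the Gypc window and at 1.81-fold in the Ermap window, where 4 bins without a listed peak were higher, at 1.89-fold to 2.17-fold. Across the genome 98 of 943 bins with a listed peak (10.4%) reached 5-fold, so most listed peaks do not stand out at this scale. As the windows were picked for their peaks, these counts are descriptions.

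**Figure D5:**
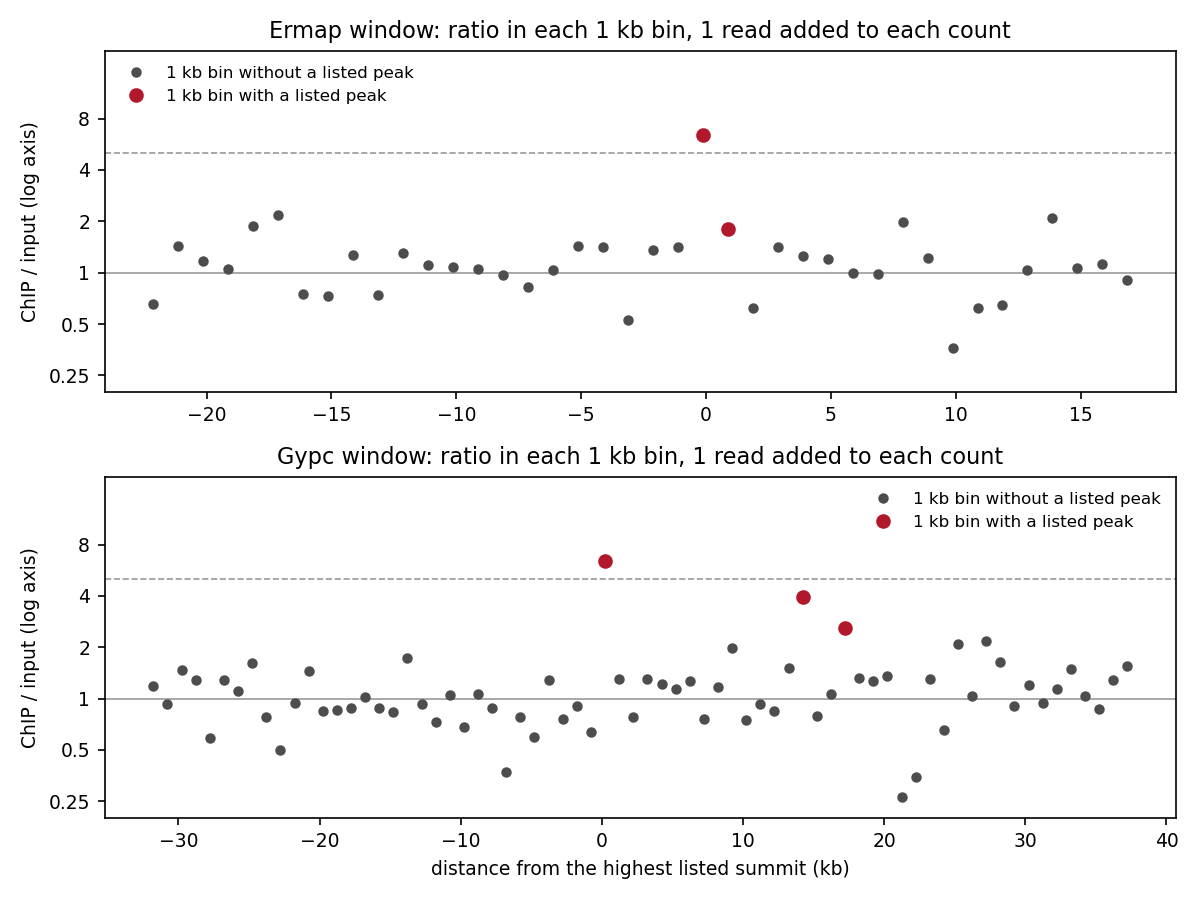
Ratio of ChIP to input in each 1 kb bin (vertical log axis, 1 read added to each count) against distance from the tallest summit (horizontal axis, kb); red points are bins with a listed peak, the solid line is 1 and the dashed line 5-fold. The bins of the tall peaks, 6.41-fold at Ermap and 6.42-fold at Gypc, are the only ones above the dashed line in these windows.

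Just outside the list, the highest unlisted ChIP pileup, taken more than 200 bp from a listed interval, was 8 in the Gypc window and 6 in the Ermap window. The Gypc position was 32703489, where 8 input reads also lay and the ratio was 2.72 (0.888 to 8.30). The Ermap position was 118860927, with 2 input reads and a ratio of 8.15 (1.46 to 82.5). All other unlisted summits reached 5, the lowest height counted, and there were 7 in the Ermap window and 12 in the Gypc window. Those with the fewest input reads were 118862074, with none, and 118842436, with 3, in the Ermap window, and 32702042 and 32738738, with 2 each, in the Gypc window. Of these, 32702042 lies 230 bp from the tall Gypc summit and 118862074 lies 556 bp from the tall Ermap summit. With no input read, the ratio at 118862074 had an exact interval that starts at 2.49 and has no upper limit. Outside the list, pileups of 5 or more occurred 66.9 times per Mb of the autosomes and X, those of 6 or more 15.6 times and those of 8 or more 1.17 times, so a height of 5 is common outside the list, whatever its input. At Ermap 8 summits of 5 or more lay in 40 kb and at Gypc 13 in 70 kb, a higher rate per Mb. The counting rules differed, so the rates are not strictly alike. Across the genome, stretches up to 200 bp apart were joined into 1, while in the windows summits over 200 bp apart were counted. The windows were also picked for their peaks. The reason for the higher rate was not tested. Just inside the list were the Ermap peak of 9 and the Gypc peak of 10.

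The groups stood alone on their chromosomes to different extents. The nearest listed peak outside the Ermap window was 139 kb before its members and the next on the other side 623 kb after. Around the Gypc window there was none for 8720 kb before and 1417 kb after, on a chromosome with 27 listed peaks in all. Of the 23 listed peaks of height 30 or more, the Ermap peak was the only one with another listed peak within 1 kb, and 9 of the 23 (39.1%), both tall members among them, had one within 20 kb. Over the whole list 18 of 945 (1.90%) had a neighbour within 1 kb and 145 (15.3%) within 20 kb.

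Listed peaks with the most similar values were found by the distance over height, summit ratio and flank ratio on the log2 scale, each divided by its SD over the 945 peaks. Nearest to the tall Gypc peak were 36148310 on chromosome 1 (distance 0.0307), 85935903 on chromosome 15 (0.205) and 29067432 on chromosome 17 (0.398), with heights of 34, 36 and 33. Nearest to the tall Ermap peak were 112797042 on chromosome 12 (0.387), 25039865 on chromosome 17 (0.394) and 29575527 on chromosome 17 (0.451), with heights of 28, 27 and 26. The tall Ermap and Gypc peaks were 1.10 apart, and Gypc was the 30th nearest of the listed peaks to Ermap.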

How the data were processed

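Per the labels, ChIP and input reads of the SOLiD 2.0 and 3.0 runs were combined and aligned to mm9. No aligner or peak caller is named in the sources used here. The deposited read files give chromosome, position and strand, and no reads in either file shared position and strand, so any position adds at most 1 read per strand to a height. Column 4 of the deposited list is a signal, the authors' pileup height. For 945 of 945 peaks it equalled the ChIP reads over the listed start with reads extended to 101 positions from the 5′ end, the extension used throughout.

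The members and lists were chosen with earlier results of these data known, and no p-value is given, because every measure comes from the contrast that chose them. Ratios were scaled to all aligned reads. Intervals are exact Clopper-Pearson 95% intervals, and those that compare summit or flank ratios between members are of a conditional odds ratio. Named sites are the listed peaks of the windows, the 3 highest unlisted summits of each (ties in height by fewest input reads) and the 3 listed peaks nearest to each member of height 20 or more. Promoters came from RefSeq, GRCm38.p6: Ermap matched, Gypc is named only. Of the list of other blood group genes, 1 is not reported here. The counting code was checked on simulated reads. Python 3.11.15, NumPy 2.4.6, SciPy 1.17.1 and matplotlib 3.10.9 were used.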

Additional observations from a re-analysis of the deposited data

How the results depend on the processing

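Of 87 alternatives over 30 values, 72 kept the value within its counting interval or within 1.5 times and 15 moved it. The flank ratio at 32719704, whose interval includes 1, crossed it to 0.776 in flanks reaching 500 bp. Among peaks of height 11 or more the Ermap window kept 1 member. All summit, flank and window ratios stayed within their counting intervals, which are wide. Flanks ending at 200 bp gave 2.11 in place of 3.26 at the tall Ermap peak and 4.07 in place of 1.94 at the lower one. At 10-fold, and in bins of 2 kb, 0 bins passed in either window, and Gypc had 2 at 3-fold and 2 in bins of 500 bp. Unlisted summits of 5 or more numbered 4 at Ermap and 8 at Gypc with reads extended to 80 positions, and 14 and 21 at 130 positions. A longer extension can raise a pileup and never lowers it. Up to 150 bp from the summit the distance between reverse and forward reads was 37.0 bp both at the lower Ermap peak and at the Gypc peak at 32716456. Widths moved to 345 bp at the lower Ermap peak with 130 positions and to 133 bp at the tall Gypc peak with 80. No paired analysis was possible because each group is 1 combined file whose runs cannot be separated, and for the same reason no run could be left out. Peaks near other blood group genes were not counted without an mm9 annotation. Depth limits the lower peaks most, since they rest on 9 to 12 ChIP reads.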

Other observations

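The following values were looked up after the windows had been seen. The lowest ratios lay in the Gypc window, in the adjoining bins from 32723000 and 32724000, with 3 and 5 ChIP reads against 40 and 46 input reads (0.265-fold and 0.347-fold with 1 read added). Of the Gypc bins with at least 20 input reads, 3 of 60 were under 0.4-fold, against 1 of 36 in the Ermap window and 2.75% of such bins on the autosomes and X.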
